A study of Mus musculus with 12 samples.

Results

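The 10 genes described here encode the replication licensing and CMG helicase proteins Mcm2, Mcm3, Mcm4, Mcm5, Mcm6, Mcm7, Cdc6, Cdt1, Cdc45 and Gins2. They were chosen by symbol, and all 10 were found among 7918 named genes, through 127 of 30939 named probe sets. The array carries 719071 exon region and exon junction probe sets in all. Whole cerebella of 12 C57BL/6 mice at postnatal day 3 were measured, in 4 groups of 3. Atr BaxBak mice had floxed Atr (Atr-loxP/loxP), floxed Bax (Bax-loxP/loxP) and no Bak (Bak--/-), and their BaxBak controls had the same Bax and Bak alleles without the floxed Atr. Atr p53 mice had floxed Atr (Atr-loxP/loxP) and floxed p53 (p53-loxP/loxP), and the p53 controls had the floxed p53 alone. All 4 groups carried Math1-Cre, which acts in cells of the granule lineage, so floxed genes could be deleted there while other cells in the same RNA kept them. Bak was absent from all cells of both BaxBak groups. The labels do not tell whether the 3 mice of a group were littermates, so p-values refer only to the spread among these 12 samples, which may be partly technical. In bulk tissue, fewer cells of a type and less RNA per cell cannot be told apart.

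Before a cell replicates its DNA, Cdc6 and Cdt1 help the origin recognition complex load rings of Mcm2 to Mcm7 onto origins, a step called licensing. At the start of S phase, Cdc45 and the GINS complex join the loaded rings, and the resulting CMG complex unwinds DNA at the fork. Atr encodes a kinase that responds to replication stress and restrains the firing of further origins. Granule cell precursors divide in the outer layer of the cerebellum after birth and are its main dividing cells at this age. Licensing genes are textbook targets of E2F factors, which drive transcription as cells enter S phase.

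The promoters are shown because these genes moved together in the data below. RefSeq promoter windows (GRCm38.p6, 250 bases before to 50 after a transcript start) were matched for 8 of the 10 genes, with 9 windows, since Mcm7 has 2. The windows were searched on both strands for the E2F words TTTCCCGC, TTTGGCGC, TTTCGCGC and TTTGCCGC, which can overlap each other on opposite strands. At least 1 word was present for 6 of the 8 genes (Mcm3, Mcm5, Mcm6, Mcm7, Cdc6 and Cdt1), and in 2.26% of all 32851 promoter windows. The first word lay 153 bases before the start in Mcm5, 110 in Mcm6, 165 in Mcm7 and 138 in Cdc6. In Mcm3 and Cdt1 the first words lay 19 and 32 bases after the start. Mcm6 held 3 matches, and Mcm3, Mcm5 and 1 Mcm7 window held 2 each. The Mcm2 and Cdc45 windows did not hold these letters. The pentamer CCAAT was found for 6 of the 8 genes and in 37.4% of all windows, and the words TTTGAA or TTCGAA, cores of a cell cycle element named CHR, for 3 of the 8 and in 19.2% of all windows. A match is a description of letters and not a binding site. The stretches of 100 bases that begin 20 bases before the first E2F word follow, with those words in capitals, for the genes whose first word lies upstream of the start.
Mcm5 (chr8:75109336-75109435, plus strand): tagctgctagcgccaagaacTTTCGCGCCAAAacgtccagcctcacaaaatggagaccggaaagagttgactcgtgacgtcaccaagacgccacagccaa
Mcm6 (chr1:128359736-128359835, minus strand): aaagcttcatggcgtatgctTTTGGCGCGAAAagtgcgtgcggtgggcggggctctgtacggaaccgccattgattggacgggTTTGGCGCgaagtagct
Mcm7 (chr5:138171969-138172068, minus strand): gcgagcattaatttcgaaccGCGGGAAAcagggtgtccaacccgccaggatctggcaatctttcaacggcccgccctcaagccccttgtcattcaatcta
Cdc6 (chr11:98907993-98908092, plus strand): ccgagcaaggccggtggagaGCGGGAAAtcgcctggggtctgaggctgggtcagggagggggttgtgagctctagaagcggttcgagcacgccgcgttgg
Mcm5 and Mcm6 share an arrangement in which words on opposite strands overlap to form 1 run, in opposite order, and Mcm6 holds a further word nearer the start. The second Mcm7 word lies outside the stretch shown.

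Signals were log2 values, and array medians lay between 6.46 and 6.49. The mean of the negative control probe sets was 4.32 to 4.58 in Atr BaxBak cerebella, against 3.97 to 4.20 in BaxBak controls. It was 4.15 to 4.50 in Atr p53 cerebella, with the 4.50 in replicate 2, and 4.12 to 4.31 in p53 controls. Atr p53 replicate 2 also lay farthest from the rest of its group over the whole array. Its Pearson correlations across probe sets were 0.985 with both other replicates, which correlated with each other at 0.990. Among the p53 controls, replicate 1 lay nearly as far from the others, at 0.986 and 0.985, and those correlated with each other at 0.988. Symbols exist only for probe sets whose adjusted p in the BaxBak comparison, as the authors computed it, was under 0.05. The BaxBak values, the differences between backgrounds and the comparison of the control groups therefore concern genes selected on the same samples. The Atr p53 comparison did not choose the names, though its fit shares 1 estimate of spread with the BaxBak samples. No named probe set belonged to Atr, so its loss was not analysed here. The 4 RefSeq probe sets of Trp53 averaged 9.9 in p53 controls, against 10.6 in BaxBak controls.

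All 10 genes were lower in Atr BaxBak cerebella than in BaxBak controls, by 1.37-fold (Mcm7) to 2.67-fold (Mcm4). The Mcm7 value includes 2 probe sets that rose, and with its RefSeq probe sets alone the log2 difference was -0.76 in place of -0.46. For every gene the 3 mutants lay below the 3 controls. The median difference in log2 signal was -0.97 over the 10 genes, against -0.34 over all named genes. Of the named genes, 58.5% were called lower and 39.8% higher (limma, Benjamini-Hochberg adjusted p under 0.05), and 58.6% had all mutants below all controls, shares that the naming itself raised. Over the whole array, 3.02% of probe sets were called lower and 2.22% higher, and 17.6% had all mutants below all controls. Of the 127 probe sets of the 10 genes, 125 were called lower and 2 higher, an outcome that the naming favoured.

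The Mcm2 to Mcm7 genes encode the ring of the helicase. Mcm2 had log2 signals of 8.75, 8.97 and 8.78 in Atr BaxBak cerebella, against 9.80, 9.95 and 9.85 in BaxBak controls, a difference of -1.03 ± 0.17 (standard error) or 2.05-fold lower. Mcm3 had log2 signals of 8.31, 8.62 and 8.43 in Atr BaxBak cerebella, against 9.38, 9.49 and 9.34 in BaxBak controls, a difference of -0.95 ± 0.14. Mcm4 had log2 signals of 6.52, 6.66 and 6.53 in Atr BaxBak cerebella, against 7.81, 8.19 and 7.97 in BaxBak controls, a difference of -1.42 ± 0.21. Mcm4 fell the most of the 10, but its value rests on 2 junction probe sets. Mcm5 had log2 signals of 8.60, 8.85 and 8.72 in Atr BaxBak cerebella, against 9.69, 9.84 and 9.74 in BaxBak controls, a difference of -1.03 ± 0.14. Mcm6 had log2 signals of 8.60, 8.79 and 8.60 in Atr BaxBak cerebella, against 9.70, 9.80 and 9.65 in BaxBak controls, a difference of -1.05 ± 0.15. Mcm2, Mcm3, Mcm5 and Mcm6 fell by nearly the same amount, within about 1 standard error of each other. Mcm7 had log2 signals of 8.64, 8.84 and 8.69 in Atr BaxBak cerebella, against 9.13, 9.23 and 9.18 in BaxBak controls, a difference of -0.46 ± 0.10. The groups were apart for every one of these genes, and within the mutants replicate 2 was the highest of the 3 each time.

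The loading factors are Cdc6 and Cdt1. Cdc6 had log2 signals of 7.35, 7.51 and 7.34 in Atr BaxBak cerebella, against 8.24, 8.41 and 8.27 in BaxBak controls, a difference of -0.91 ± 0.14 or 1.88-fold lower. Cdt1 had log2 signals of 7.96, 8.23 and 7.96 in Atr BaxBak cerebella, against 8.90, 9.03 and 8.90 in BaxBak controls, a difference of -0.89 ± 0.15 or 1.86-fold lower. Both groups of 3 were apart for both genes. Cdc45 and Gins2, a GINS subunit, join the ring when the helicase is activated. Cdc45 had log2 signals of 7.52, 7.68 and 7.51 in Atr BaxBak cerebella, against 8.49, 8.58 and 8.61 in BaxBak controls, a difference of -0.99 ± 0.09 or 1.98-fold lower. Gins2 had log2 signals of 7.36, 7.40 and 7.48 in Atr BaxBak cerebella, against 8.21, 8.31 and 8.21 in BaxBak controls, a difference of -0.83 ± 0.06 or 1.78-fold lower. Gins2 had the smallest standard error of the 10.

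**Figure D1:**
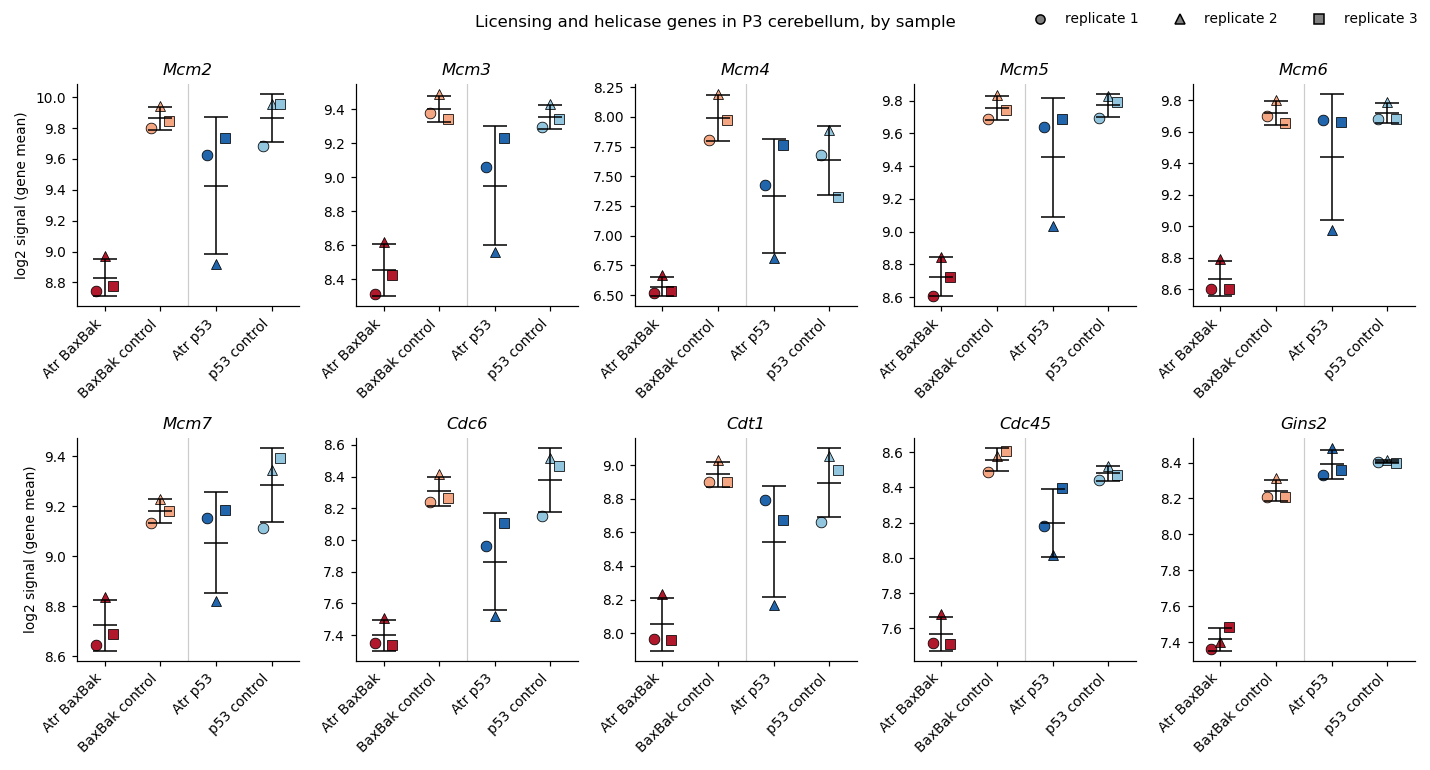
Log2 signal (mean of the probe sets of each gene) in each of the 12 samples, 1 panel per gene, with the Atr mutants to the left of their controls. Bars give the mean and SD of 3 samples. The 3 Atr BaxBak samples lie below the 3 BaxBak controls in every panel, and Atr p53 replicate 2 (triangle) is low in every panel but that of Gins2.

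In the p53 background, none of the 10 genes was called (limma, Benjamini-Hochberg over 7918 genes), with 2.48% of the named genes called. All 10 differences were below 0, with a median of -0.31 against -0.03 over all named genes. At an unadjusted p under 0.05 there were 7 of 10, against 25.5% of all named genes. Of the 127 probe sets, 0 were called, with 0.00445% called over the whole array, and 121 were below 0. At an unadjusted p under 0.05 there were 43, against 7.76% of the array. These unadjusted counts fell to 3 genes and 11 probe sets without Atr p53 replicate 2, where those over all features were 1376 genes and 39722 probe sets. They fell to 3 and 15 without p53 control replicate 2 (1323 and 38685 over all features) and to 3 and 16 without p53 control replicate 3 (1574 and 38545). Without Atr p53 replicate 3 they rose to 9 and 81 (2432 and 73582). With all samples, the counts over all features were 2020 genes and 55793 probe sets. The authors' deposited table of the p53 comparison likewise gives no probe set of these genes a step-up p below 0.643, with 35 at an unadjusted p under 0.05. All 3 mutants lay below all 3 controls for 5 genes (Mcm3, Mcm5, Mcm6, Cdc6 and Cdc45), as they did for 18.0% of the named genes, and for 42 of the 127 probe sets, as for 5.98% of the array.

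Among the ring genes, Mcm2 had 9.63, 8.92 and 9.74 in Atr p53 cerebella, against 9.68, 9.95 and 9.96 in p53 controls, a difference of -0.44 ± 0.17 with an adjusted p of 0.148. Mcm3 had 9.06, 8.56 and 9.23 in Atr p53 cerebella, against 9.29, 9.43 and 9.34 in p53 controls, a difference of -0.41 ± 0.14 with an adjusted p of 0.111. In both genes the low value belongs to Atr p53 replicate 2, and the other mutants lie nearer the controls. Mcm4 had 7.43, 6.81 and 7.76 in Atr p53 cerebella, against 7.68, 7.89 and 7.33 in p53 controls, a difference of -0.30 ± 0.21 with an adjusted p of 0.390. Mcm5 had 9.64, 9.04 and 9.69 in Atr p53 cerebella, against 9.69, 9.83 and 9.79 in p53 controls, and Mcm6 had 9.67, 8.98 and 9.66 in Atr p53 cerebella, against 9.68, 9.79 and 9.68 in p53 controls. For Mcm5 the difference was -0.32 ± 0.14 and for Mcm6 -0.28 ± 0.15, with adjusted p of 0.189 and 0.271. Outside replicate 2, the mutants of Mcm5 and Mcm6 lay within 0.01 of the lowest control at their closest. Mcm7 had 9.15, 8.82 and 9.19 in Atr p53 cerebella, against 9.11, 9.34 and 9.39 in p53 controls, a difference of -0.23 ± 0.10 with an adjusted p of 0.191. Its other mutants overlapped the controls.

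The loading factor Cdc6 had 7.96, 7.52 and 8.11 in Atr p53 cerebella, against 8.15, 8.52 and 8.47 in p53 controls, a difference of -0.52 ± 0.14, the largest of the 10, with an adjusted p of 0.0703. Cdt1 had 8.79, 8.17 and 8.67 in Atr p53 cerebella, against 8.66, 9.05 and 8.97 in p53 controls, a difference of -0.35 ± 0.15 with an adjusted p of 0.176. The 3 mutants of Cdc6 lay below its controls, and those of Cdt1 did not. The activation factor Cdc45 had 8.18, 8.01 and 8.40 in Atr p53 cerebella, against 8.44, 8.52 and 8.47 in p53 controls, a difference of -0.28 ± 0.09 with an adjusted p of 0.0906. Gins2 had 8.33, 8.48 and 8.36 in Atr p53 cerebella, against 8.40, 8.41 and 8.40 in p53 controls, a difference of -0.02 ± 0.06 with an adjusted p of 0.896. Gins2 is the exception of the 10: its value in Atr p53 replicate 2 was the highest of the 12 samples.

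**Figure D2:**
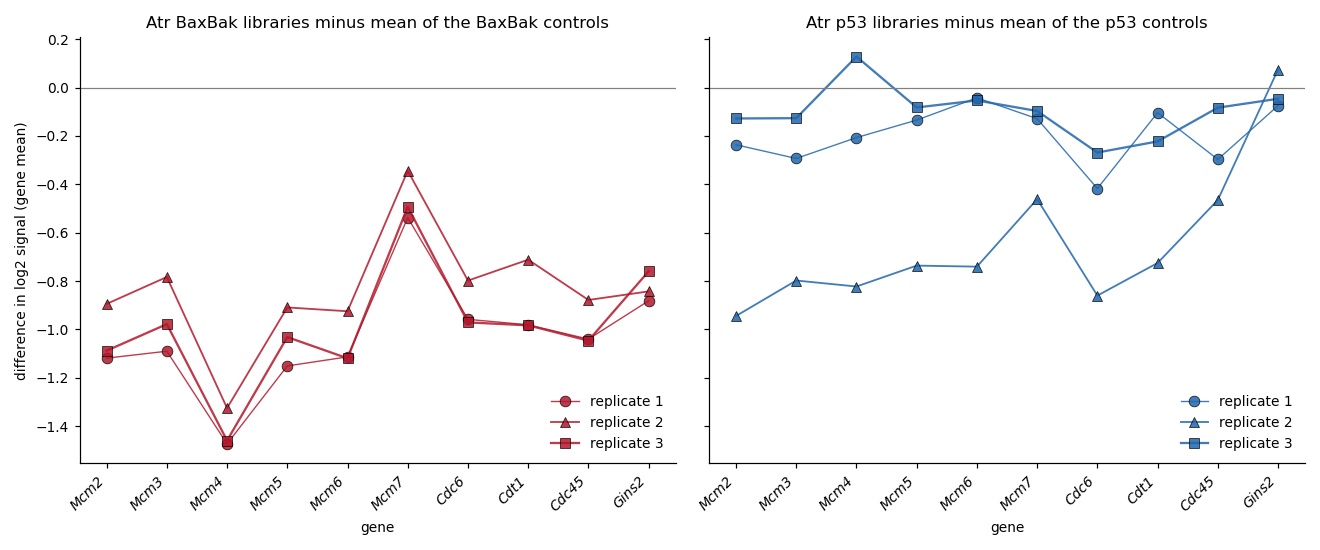
Each mutant library minus the mean log2 signal of its own 3 controls, for each gene. The Atr BaxBak libraries run together between -0.34 and -1.47, while in the p53 panel replicate 2 lies between -0.46 and -0.94 for 9 genes and at 0.07 for Gins2.

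Atr p53 replicate 2 weighed heavily on these values. Leaving Gins2 aside, it lay 0.46 to 0.94 below the mean of the p53 controls, while replicate 1 lay 0.04 to 0.42 below and replicate 3 ran from 0.27 below to 0.13 above. Without it the median difference over the 10 genes was -0.14, in place of -0.31. The difference of Mcm6 became -0.05, that of Mcm4 -0.04 and that of Mcm2 -0.18, while Cdc6 kept -0.34 and Cdc45 -0.19. The same sample had the highest negative control mean of its comparison, and its part in the result was not tested. All 3 Atr p53 samples and p53 control replicate 1 share the first number in the brackets of their titles, 1843, and the other p53 controls have 1845. Within 1843, which sets 3 mutants against 1 control, the differences ran from -0.35 (Mcm4) to -0.01 (Gins2), with a median of -0.24. Because they rest on 1 control, no test of them is given. With the first number of the titles as a random block Cdc6 was called (-0.54, limma adjusted p 0.0419), in a fit that called 526 of 7918 named genes in place of 196. In the BaxBak comparison no number is shared between the groups, so it and genotype cannot be told apart.

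The mean of the Atr BaxBak cerebella was the lowest of the 4 groups for all 10 genes. Next came Atr p53 cerebella for 9 genes, while for Gins2 it was the BaxBak controls. The lowest and the second group overlapped in Mcm2, Mcm3, Mcm7 and Cdt1 and were apart in the other 6. In each overlap, Atr p53 replicate 2 was the only Atr p53 sample below the highest Atr BaxBak sample. The second group and the next overlapped in 6 genes and were apart in Mcm3, Cdc6, Cdc45 and Gins2. The 2 highest groups overlapped in all 10. The shares of all named genes with such orders and overlaps were not computed, so these counts do not show anything particular to the 10 genes. Between the p53 controls and the BaxBak controls, 0 of the 10 genes was called, with 17.2% of named genes called, and 0 of 127 probe sets, with 0.0964% called over the array. At an unadjusted p under 0.05 there were 1 gene, Gins2, and 3 probe sets, against 2657 of 7918 named genes and 73204 of 719071 probe sets.

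The effect of Atr was more negative in the BaxBak than in the p53 background for all 10 genes, by -0.23 (Mcm7) to -1.12 (Mcm4). The difference was called for 8 genes, as for 6632 of 7918 named genes in either direction and 49.9% below 0 (limma, Benjamini-Hochberg). The 2 left out were Mcm7 (adjusted p 0.154) and Cdc6 (adjusted p 0.081). Gins2 had the smallest adjusted p of the 8, 7.6e-05. No probe set of these genes passed over the whole array (0 of 127, with 0.0809% called). An unadjusted p under 0.05 was found for 100 of the 127, and for 82818 of the 719071 on the array. Without Atr p53 replicate 2, all 10 genes passed, as did 6855 of 7918 named genes, 4072 of them below 0. So did 14 of the 127 probe sets, with 1034 called over the array. The 8 genes became 5 without BaxBak control replicate 2, Atr BaxBak replicate 1 or Atr p53 replicate 1. They also became 5 without Atr p53 replicate 3 or p53 control replicate 1, and with negative control signal as a covariate. The named genes called were 6004 to 6223 in those fits without a replicate and 5406 with the covariate, in place of 6632. Mcm2 lost its call in 11 of 23 alternatives, Mcm3 in 8 of 23 and Cdt1 in 8 of 22, while Mcm4, Mcm5, Mcm6, Cdc45 and Gins2 lost it in none of those that held them.

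**Figure D3:**
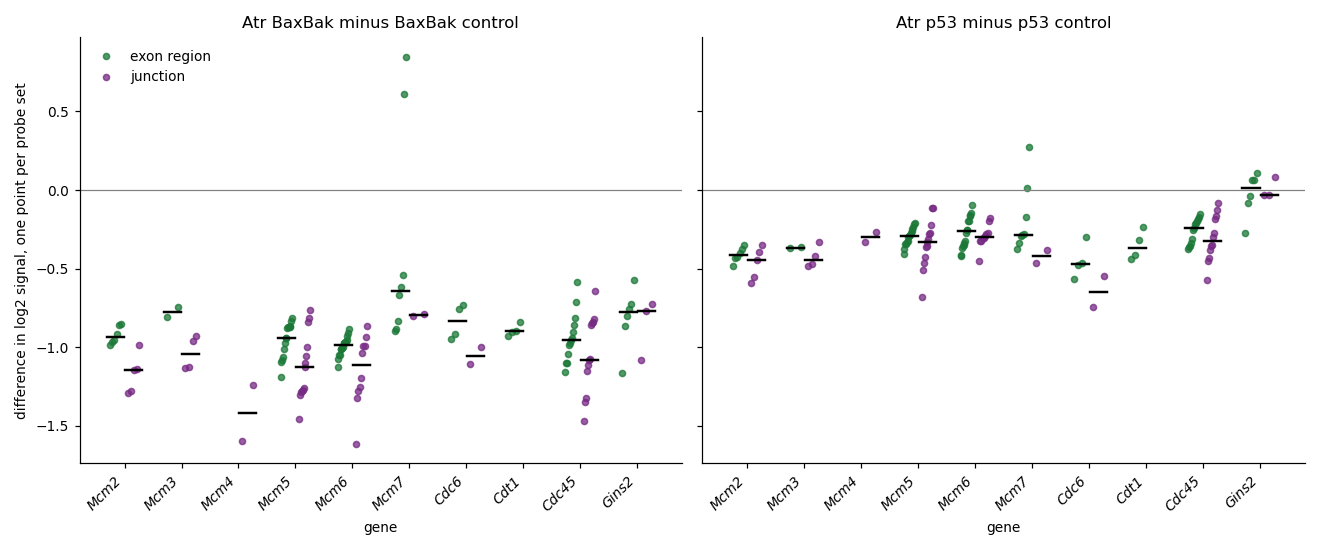
Difference in log2 signal between mutants and controls for every probe set of the 10 genes, in the BaxBak background (left) and the p53 background (right), with exon region probe sets green, junction probe sets purple and medians as lines. Values in the right panel sit closer to 0, and those of Gins2 straddle 0, while 2 Mcm7 exon region probe sets lie above 0 in both.

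Most named probe sets of a gene shared a direction. Only probe sets that passed the authors' test of the BaxBak comparison have a symbol, so unchanged ones could not appear here. The agreement in the BaxBak comparison is therefore given as description. Within the 74 exon region and 53 junction probe sets, the BaxBak differences ran for Mcm5 from -1.46 to -0.77 (28 probe sets), for Mcm6 from -1.61 to -0.86 (26) and for Cdc45 from -1.47 to -0.58 (25). All probe sets of these genes were also below 0 in the p53 comparison. The junction median was below the exon region median in 7 of the 8 genes that had both kinds, with Gins2 the exception. For Mcm3, for example, junctions had a median of -1.04 and exon regions -0.78, and for Mcm2 they had -1.15 and -0.93. Over all named genes the median was also lower with junction probe sets only (-0.48) than with exon region probe sets only (-0.30). Of the 6 probe sets at or above 0 in the p53 comparison, 4 belonged to Gins2 and 2 to Mcm7.

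Mcm7 was the member whose probe sets disagreed. Its 8 probe sets assigned to a RefSeq transcript were lower in Atr BaxBak cerebella, by -0.90 to -0.54. The 2 assigned only to Ensembl transcripts were higher, one at 7.07, 7.36 and 7.29 in Atr BaxBak cerebella, against 6.74, 6.60 and 6.54 in BaxBak controls, and the other at 4.80, 5.26 and 4.94, against 4.06, 4.03 and 4.38. The second stands near the negative controls, which were also higher in these mutants, and its part in the result was not tested. When each array was centred on its negative controls neither of the 2 was called. With the RefSeq probe sets alone, an alternative chosen after the values were seen, Mcm7 was -0.76 ± 0.12 in the BaxBak background and -0.32 in the p53 background, and its difference between backgrounds passed (-0.43, adjusted p 0.0341).

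**Figure D4:**
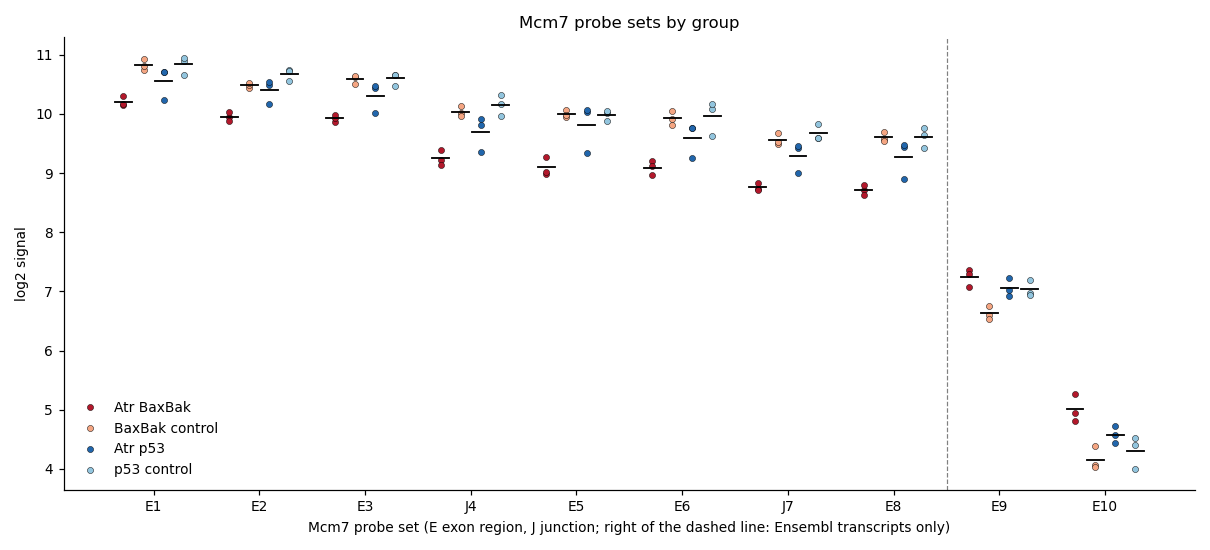
Log2 signal of the 10 Mcm7 probe sets in each sample, with lines at group means. The 8 RefSeq probe sets left of the dashed line are lower in Atr BaxBak cerebella than in BaxBak controls, and the 2 to its right are higher.

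Other genes of the pathway were given by lists chosen with earlier results known. Of 11 other licensing genes, 10 were named, and all 10 fell in Atr BaxBak cerebella, with a median of -0.66, beside the 58.5% of all named genes called lower. In the p53 background 1 of them was called lower, Fbxo5, an inhibitor of the anaphase-promoting complex, at -0.36 (adjusted p 0.0431). Orc1, the largest origin recognition subunit, was at -0.30 there (adjusted p 0.0816), Dtl, a Cdt1-degrading ligase factor, at -0.45 (0.0851) and Orc6 at -0.12 (0.228). All 17 helicase activation and fork genes were named, and all 17 fell in the BaxBak background, with a median of -0.85, while 0 of 17 passed in the p53 background, where 2.48% of all named genes did. There Mcm9, a paralog of the ring subunits, was at -0.33 (adjusted p 0.0603), Mcm10 at -0.42, Clspn, an Atr pathway mediator, at -0.41, and Gins3 at -0.27. Gins1, Gins3 and Gins4 fell by 0.93, 0.96 and 0.45 in the BaxBak background, beside 0.83 for Gins2. In the p53 background Gins1 was at -0.22 and Gins4 at -0.03.

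Among 13 E2F and pocket protein genes, 10 were named, 9 fell and Rb1 rose on a single probe set (1.36) in the BaxBak background. In the p53 background 0 of 10 passed, with E2f7 at -0.39, E2f3 at -0.21, E2f1 at -0.37 and E2f2 at -0.44. All 10 cyclin and kinase genes of the G1 to S transition fell in the BaxBak background, with a median of -0.78, and 0 of 10 passed in the p53 background. Of all named genes, 58.5% were called lower in the BaxBak background and 2.48% were called in the p53 background. There Cdk6 was at -0.54, Cdk2 at -0.28, Ccnd2 at -0.40 and Ccne1 at -0.15.

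Markers of the cell types in whole cerebellum moved with the BaxBak result. All 5 named dividing cell markers fell, with a median of -0.91, in a comparison that called 58.5% of the named genes lower. So did 7 of 8 named granule precursor markers, with a median of -0.59 over the 8. Gli1, a sonic hedgehog target measured by 1 probe set, rose (0.31). Atoh1 and Zic1, among those that fell, also rest on 1 probe set each. The level of a list is given as the mean log2 signal of its named genes. For granule precursors it was 9.76 to 9.81 in Atr BaxBak cerebella, against 10.25 to 10.40 in BaxBak controls, and for dividing cells it was 8.16 to 8.42, against 9.12 to 9.21. Markers of other cells were higher, in a comparison that called 39.8% of the named genes higher. All 6 named Purkinje cell markers of 7 rose (median 0.71), as did all 5 GABAergic interneuron markers (0.74) and all 5 named astrocyte and Bergmann glia markers of 7 (1.03). Both named endothelium and pericyte markers of 6, Vwf (0.77) and Pdgfrb (1.10), and both named microglial markers of 5, Cx3cr1 (0.36) and P2ry12 (0.42), rose. Pdgfrb, Cx3cr1 and P2ry12 rest on 1 probe set each. In the oligodendrocyte lineage 5 of 6 named markers of 7 rose, and Pdgfra fell (-0.72). The glial list was at 8.98 to 9.08 in Atr BaxBak cerebella, against 7.78 to 8.11 in BaxBak controls. The part of these markers in the lower licensing signal was not tested. In the p53 comparison none of these marker genes passed, where 2.48% of all named genes did. There the granule precursor list was at 9.80 to 10.02 in Atr p53 cerebella, against 10.08 to 10.22 in p53 controls, and the dividing cell list was at 8.58 to 9.06, against 8.92 to 8.99. Atr p53 replicate 2 was the lowest of the 3 mutants for both lists, by -0.34 and -0.38 against the mean of the controls, and its part was not tested.

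**Figure D5:**
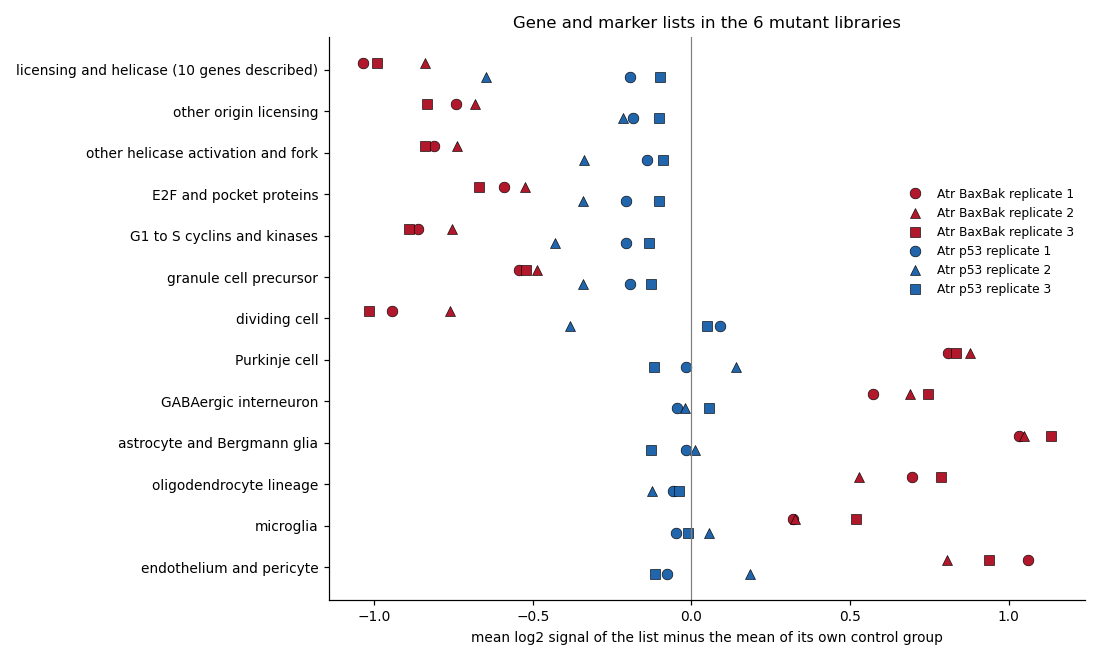
Mean log2 signal of each list minus the mean of its own control group, for the 3 Atr BaxBak and 3 Atr p53 libraries. Licensing, helicase, E2F, G1 to S, granule precursor and dividing cell lists lie below 0 in all Atr BaxBak libraries, and the lists of other cell types lie above 0. Atr p53 libraries lie nearer 0.

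By root mean square distance of the centred profile over the 12 samples, the 8 named genes most like the mean of the 10 were Chaf1a, Osbp2, Cdca8, Mybl2, Cdca7, Lig1, Cdca7l and E2f8, at 0.036 to 0.052. Among the 10, Mcm5 lay nearest the mean profile (0.058) and Gins2 farthest (0.24), followed by Mcm4 (0.22) and Mcm7 (0.19).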

How the data were processed

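The authors deposited log2 signals per probe set, each an exon region or a junction, for 12 arrays. Per the labels' protocols, total RNA was labelled with the Affymetrix WT PLUS kit. The submitters' processing notes name Partek, with no role or version. How the arrays were normalized, and on which build, is not given in the sources used. The authors' deposited tables of p-values, step-up p-values and fold values hold 34305 probe sets, all with a step-up p under 0.05 in the BaxBak comparison, and were used for gene symbols and for the p53 comparison. The tests were planned for gene values. The files hold probe sets, so probe sets and the mean of each gene's probe sets were both fitted. A probe set with more than 1 symbol (689) was left out.

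limma 3.58.1 in R 4.3.3 (lmFit, eBayes, two-sided) took all 12 samples, with a mean for each of the 4 groups (8 residual degrees of freedom) and Benjamini-Hochberg adjustment over 719071 probe sets or 7918 genes at 0.05. Errors after ± are standard errors of log2 differences. Replicates did not hold identical values. The fit was tested on simulated data. Alternatives were other scalings, filters, spread models, gene summaries and label prefixes, and leaving out each replicate. All 10 members are named. From each pathway list the 4 genes with the smallest unadjusted p in the p53 comparison are named, with genes in counts of 5 or fewer. The members and lists were chosen with earlier results of these data known. Promoter sequences are from RefSeq. The number of arrays limits the precision.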

Additional observations from a re-analysis of the deposited data

Results flagged for a closer look

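By limma's test of the difference itself, the Atr effect differed between the backgrounds for 8 of the 10 genes. It did so for 6632 of 7918 named genes. The 8 genes were all more negative in the BaxBak background, a direction in which 49.9% of the named genes were called. On the log2 scale the difference was -0.60 for Mcm2, -0.54 for Mcm3, -1.12 for Mcm4, -0.71 for Mcm5 and -0.77 for Mcm6 among the ring genes. It was -0.54 for Cdt1, -0.71 for Cdc45 and -0.81 for Gins2. Mcm2, Mcm3 and Cdt1 lost the call in 11, 8 and 8 alternatives. The adjusted p ran from 7.6e-05 (Gins2) to 0.0397 (Mcm2), and the genes were named through the BaxBak comparison, which enters this difference. For Gins2, all 3 Atr BaxBak samples lay below their controls, while the Atr p53 samples lay on both sides of theirs.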

How the results depend on the processing

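The 10 genes were called lower in the BaxBak background under each alternative that held them, and 0 of 10 genes and 0 of 127 probe sets were called between the control groups under each alternative run. The number of their probe sets called in the BaxBak background, 127, became 0 with negative control signal as a covariate, a setting in which all 10 genes still passed, and 51 to 114 when a replicate was left out. The lowest count, 51, came without BaxBak control replicate 2, with 66 without Atr BaxBak replicate 3 and 69 without Atr BaxBak replicate 1. Over the whole array, 37680 called probe sets became 759 with the covariate, where 7575 of 7918 named genes were called. They became 7554, 10334 and 12013 in the leave-outs just named, in that order. Centring on the negative controls moved the median of all probe sets from -0.02 to -0.34. It gave 88930 lower and 5342 higher probe sets, in place of 21684 and 15996. The 10 genes then had a median of -1.29.

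In the p53 background 0 of 10 genes became 1 (Cdc6) with the label prefix as a random block and with the median of the probe sets, and 0 to 3 when a replicate was left out. The 3 without Atr p53 replicate 3 were Cdc6, Mcm3 and Cdc45, and the 1 without p53 control replicate 1 was Cdc6. Over all 7918 named genes, 196 calls became 711 without Atr p53 replicate 3 and 243 without p53 control replicate 1. They became 526 with the random block and 201 with the median of the probe sets. The genes at an unadjusted p under 0.05, 7 of 10, became 3 and their probe sets 16 with only the 6 samples compared. With the label prefix as a fixed block, which leaves 1 control, only the differences are given, with a median of -0.24 over the 10 genes. The genes became 4 with the brightest probe set, and the 43 probe sets 17 when centred on the negative controls. Over all features, 2020 genes and 55793 probe sets at that threshold became 1568 and 38509 with only the 6 samples compared. They became 1780 genes with the brightest probe set and 34212 probe sets when centred. The adjusted p of Cdc6 ran from 0.0329 to 0.601. Gins2 turned to 0.013 with quantile normalization and 0.0059 with junction probe sets only, and ran from -0.061 to 0.014 when a replicate was left out, above 0 without Atr p53 replicate 1. For the difference between backgrounds, 8 genes became 5 with negative control signal as a covariate, 5 of 9 with exon region probe sets only, where Mcm4 has none, and 5 to 10 when a replicate was left out, with 10 without Atr p53 replicate 2 and 5 without BaxBak control replicate 2, Atr BaxBak replicate 1, Atr p53 replicate 1, Atr p53 replicate 3 or p53 control replicate 1. With exon region probe sets only, 5572 of 6651 named genes were called for this difference, in place of 6632 of 7918. The 0 probe sets of the 10 genes called for it became 3 with dim probe sets left out and 6 with a trend and robust spread. The calls over the array in those 2 settings were 1175 of 547853 and 2893 of 719071, where the share was 0.0809% before. The 0 became 0 to 14 when a replicate was left out, with 14 without Atr p53 replicate 2, where 1034 were called over the array. The cause of these changes was not tested.

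No paired analysis was possible because the replicate numbers only name samples in accession order and pair none of them.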
